A study of Homo sapiens with 36 samples.

Results

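The 7 genes described here encode enzymes that make thymidylate and the other deoxynucleotides from which DNA is built: TYMS, DUT, TK1, RRM1, RRM2, DTYMK and DCTD. They are 7 of the 20046 genes that could be named from the probes of the HT-12 expression bead array. The genes were put together by enzyme function with earlier results of these arrays known, among them a low TYMS in c42b cells and a low DUT in LNCaP cells after GABPA knockdown (KD), so both KD comparisons are given below as description, without p-values. Each gene was read from the probe chosen by its highest mean log2 intensity over all samples.

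RNA was measured in 2 human prostate cancer lines, c42b, a castration-resistant derivative of LNCaP, and LNCaP, which depends on androgen. Each line had been made to carry 1 of 4 stable constructs: shGA, a hairpin against GABPA, the DNA-binding subunit of the ETS factor GABP; NT, a non-targeting hairpin; pLVX_GABPa, labelled as GABPA overexpression (OE); and pLVX_EV, the empty pLVX vector. All cells spent 48 h in charcoal-stripped serum and then received either 1 nM R1881, a synthetic androgen, or ethanol vehicle. This gave 16 groups of 2 samples, 32 samples in all, measured on 36 arrays, of which 4 were repeats averaged with their partner. The groups follow the labels, whereas the methods name the vectors the other way round, pSicoR for OE and pLVX-Tight-Puro for KD, and this conflict was not settled. A legend on xenografts calls hairpin lines clones, but whether the lines on the arrays were 1 clone or a pool is not given in the sources used here, nor whether an inducer was added to the pLVX cells. The methods speak of biological triplicates for the array RNA, whereas the labels give 2 samples per group and mark the repeat arrays. Neither says that the 2 samples of a group came from separate cultures, and the p-values cover only the spread between those samples.

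Array medians lay between 178 and 225 intensity units. A log2 level of 7.78, the 95th percentile of 437 olfactory receptor probes, served as the background level. The prostate luminal genes TMPRSS2, STEAP2, FOLH1, SLC45A3, HOXB13, KLK3 and KLK2 exceeded it in all 32 samples, while the basal keratins KRT5 and KRT14, the T-cell gene CD3E and the endothelial gene CDH5 did so in none. Of the other markers of stromal, endothelial and blood cells, CD68 exceeded it in 32, COL1A1 in 25, COL3A1 in 15, PECAM1 in 10, PTPRC in 8 and COL1A2 in 6 samples, with a highest level of 8.87 for CD68, and none of the 10 markers was called between shGA and NT or pLVX_EV and NT cells in either line. GABPA itself averaged 7.50 in c42b shGA cells and 7.96 in c42b NT cells, a difference of -0.46 ± 0.11 (SE; limma with Benjamini-Hochberg adjustment, adjusted p = 0.0215), with all 4 shGA samples below the background level. In LNCaP it averaged 7.70 in shGA cells and 8.08 in NT cells, and this difference of -0.38 ± 0.11 missed the threshold of 0.05 (limma, adjusted p = 0.101), although the samples did not overlap. In pLVX_GABPa against pLVX_EV cells the GABPA probe differed by 0.03 in c42b and by -0.05 in LNCaP (SE 0.11 each), and its other probe lay below the background level in all 32 samples, so they showed no gain of GABPA in the cells labelled OE. Which part of the transcript they read was not analysed here, so they are no check of the introduced construct.

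Thymidylate is made by adding a methyl group to dUMP, a step catalysed by thymidylate synthase, the product of TYMS. The dUMP comes from dUTP, cleaved by the dUTPase encoded by DUT, and from dCMP, deaminated by the product of DCTD. Thymidine kinase, encoded by TK1, makes the same product from salvaged thymidine, and thymidylate kinase, encoded by DTYMK, passes it on towards dTTP. RRM1 and RRM2 encode the large and small subunits of ribonucleotide reductase, which turns ribonucleotides into deoxynucleotides. Several of these genes, TYMS, TK1 and RRM2 among them, are textbook targets of the E2F factors and are transcribed mainly around S phase.

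The start regions of the members were searched because 4 of them moved together across the vectors and because GABP and E2F bind short known letters. In the RefSeq promoter table (GRCh38.p14), each window holds 250 bases before and 50 after a transcription start. All 7 members matched, with 13 windows in all, since DUT has 4 listed starts and TK1, RRM2 and DCTD have 2 each. Printed are the 250 bases before the start of TYMS (chr18:657403-657652, plus strand), of the most downstream DUT start (chr15:48331947-48332196, plus strand) and of RRM1 (chr11:4094435-4094684, plus strand), with capitals marking the motif letters found.
TYMS: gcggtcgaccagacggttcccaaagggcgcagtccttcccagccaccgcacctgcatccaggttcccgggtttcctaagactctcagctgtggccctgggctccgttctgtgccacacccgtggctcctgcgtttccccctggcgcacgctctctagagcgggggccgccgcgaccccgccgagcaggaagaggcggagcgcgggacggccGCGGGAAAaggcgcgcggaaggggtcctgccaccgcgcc
DUT: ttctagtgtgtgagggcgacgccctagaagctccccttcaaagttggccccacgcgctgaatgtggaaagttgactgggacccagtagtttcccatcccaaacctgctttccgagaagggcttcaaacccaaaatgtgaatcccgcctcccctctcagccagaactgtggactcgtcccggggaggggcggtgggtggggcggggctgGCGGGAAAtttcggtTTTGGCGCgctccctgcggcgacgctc
RRM1: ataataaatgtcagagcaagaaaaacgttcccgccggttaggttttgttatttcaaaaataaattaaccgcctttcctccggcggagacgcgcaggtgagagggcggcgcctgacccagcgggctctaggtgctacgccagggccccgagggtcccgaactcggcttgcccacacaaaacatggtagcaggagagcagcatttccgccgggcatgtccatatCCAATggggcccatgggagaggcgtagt

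The capitals in TYMS are the E2F form TTTCCCGC on the reverse strand, at bases -39 to -32 counted from the start. The DUT stretch holds the same form on the reverse strand at -42 to -35 and a second E2F form, TTTGGCGC, at -27 to -20. The capitals in RRM1 are CCAAT, the box bound by NF-Y, at -28 to -24. Among all 35114 windows searched, 2.74% held TTTCCCGC, TTTGGCGC or TTTCGCGC on either strand, against 2 of the 13 member windows, and 34.6% held CCAAT, against 5 of the 13. Both windows with an E2F form are among those printed, whereas no window of TK1 or RRM2 is printed, so the printed stretches do not represent all members. The windows of TK1, RRM1 and RRM2, which moved with TYMS, held none of these E2F forms. DUT is not 1 of the 4 members that moved together, and its other windows held none of these forms either. The ETS form CCGGAA stood in 5 of the 13 member windows (DCTD, DTYMK, 1 of the 4 DUT windows and both RRM2 windows) and in 17.2% of all windows. It is longer than the common ETS core named in the paper, GGAA or GGAT, and that shorter core was not searched. GGAA does stand in the printed TYMS stretch. Both RRM2 windows overlap and hold the same copy of CCGGAA, so a count of windows is not a count of sites. The longer GABP-type form CCGGAAGT, which contains CCGGAA, stood in none of the 13 and in 4.14% of all. These are matches of letters and say nothing on binding.

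In the KD comparisons, of shGA against NT cells, the effect of the hairpin and the making of each stable line cannot be told apart. TYMS was the member with the largest difference after GABPA KD in c42b. Its log2 level was 10.74 and 10.75 with R1881 and 11.06 and 10.70 with vehicle in c42b shGA cells, against 11.91 and 11.96 with R1881 and 12.03 and 11.82 with vehicle in c42b NT cells. All 4 shGA samples lay below all 4 NT samples. The difference was -1.12 ± 0.11 (SE; 95% interval -1.34 to -0.90), a level 0.461 times that of NT cells. It was -1.19 with R1881 alone and -1.04 with vehicle alone (SE 0.15 each).

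In LNCaP the TYMS levels overlapped. They were 10.82 and 10.42 with R1881 and 10.64 and 10.93 with vehicle in shGA cells, against 10.53 and 10.87 with R1881 and 11.08 and 11.10 with vehicle in NT cells. The difference was -0.19 ± 0.11 (95% interval -0.41 to 0.03). The KD difference of c42b minus that of LNCaP was -0.92 ± 0.15 (95% interval -1.24 to -0.61). After KD the 2 lines stood close in TYMS, with means of 10.81 in c42b and 10.70 in LNCaP, whereas in NT cells all 4 c42b samples lay above all 4 LNCaP samples.

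DUT, whose product removes dUTP before it can enter DNA, was lower after KD in both lines by its brightest probe. It measured 7.97 and 8.02 with R1881 and 8.04 and 7.86 with vehicle in c42b shGA cells, against 8.96 and 8.66 with R1881 and 8.68 and 8.99 with vehicle in c42b NT cells. In LNCaP it measured 8.15 and 8.32 with R1881 and 8.43 and 8.51 with vehicle in shGA cells, against 9.27 and 9.09 with R1881 and 9.10 and 9.04 with vehicle in NT cells. The groups did not overlap in either line. The difference was -0.85 ± 0.10 in c42b and -0.77 ± 0.10 in LNCaP, and the difference between these 2 values was -0.08 ± 0.14 (95% interval -0.36 to 0.20).

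DUT has 2 further probes, and they gave smaller KD differences. For ILMN_1732688 the difference was -0.33 ± 0.09 in c42b and -0.39 ± 0.09 in LNCaP, and for ILMN_2374778 it was -0.19 ± 0.08 in c42b and -0.37 ± 0.08 in LNCaP, against -0.85 and -0.77 for the brightest probe, ILMN_1721008. The direction was thus the same with each probe, though with ILMN_2374778 the c42b samples overlapped. Which transcript of DUT each probe detects was not analysed here.

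**Figure D1:**
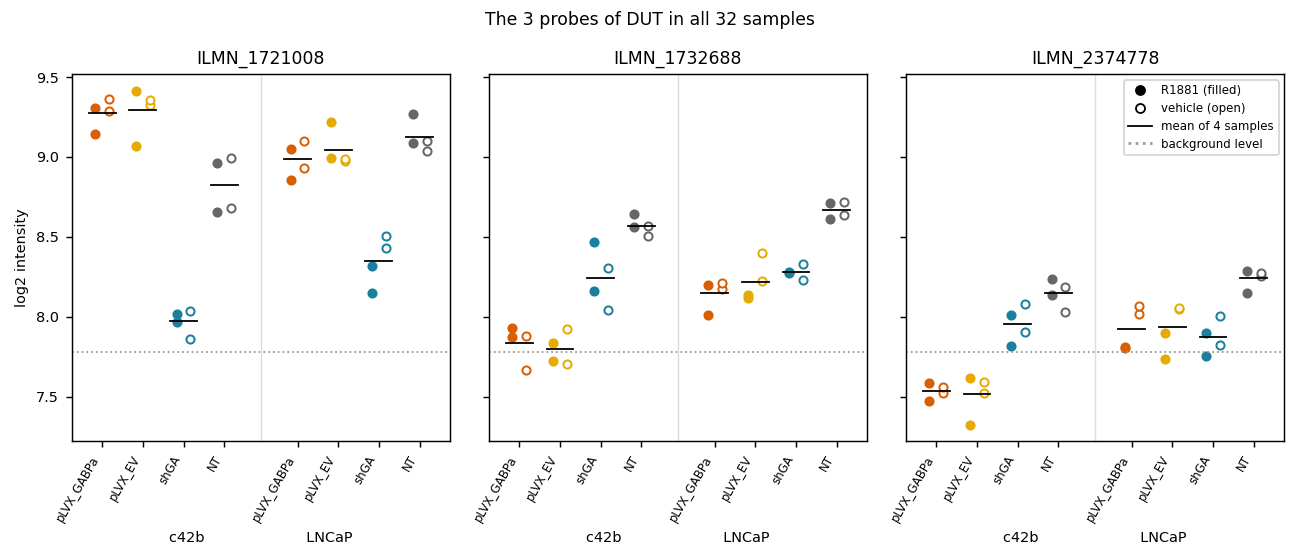
The 3 probes of DUT in all 32 samples, in log2 intensity; groups run from pLVX_GABPa through pLVX_EV and shGA to NT within c42b and then LNCaP. Filled points are R1881 samples, open points vehicle samples, bars the mean of 4 samples and the dotted line the background level of 7.78. All 3 probes are lower in shGA than in NT cells on average, but in c42b ILMN_1721008 is higher in pLVX_EV than in NT cells while the other 2 probes are lower there.

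The remaining members differed less after KD. RRM1 averaged 11.85 in c42b shGA cells and 12.09 in c42b NT cells, a difference of -0.25 ± 0.08, and 11.37 in LNCaP shGA cells and 11.19 in LNCaP NT cells, a difference of 0.18 ± 0.08. TK1 differed by -0.12 ± 0.10 in c42b and by 0.32 ± 0.10 in LNCaP, and RRM2 by -0.20 ± 0.10 in c42b and by 0.40 ± 0.10 in LNCaP. Under vehicle alone, the difference was 0.01 ± 0.15 for TK1 in c42b and -0.00 ± 0.11 for RRM1 in LNCaP, while RRM2 kept its sign in both arms of each line. The RRM2 samples of LNCaP did not overlap, with 8.51 and 8.34 (R1881) and 8.46 and 8.32 (vehicle) in shGA cells, against 8.10 and 8.01 (R1881) and 7.83 and 8.11 (vehicle) in NT cells.

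DCTD averaged 9.90 in c42b shGA cells and 10.15 in c42b NT cells, a difference of -0.25 ± 0.08, without overlap of the samples. In LNCaP the DCTD difference was -0.10 ± 0.08, and its dimmer probe gave -0.28 ± 0.08 in c42b and -0.24 ± 0.08 in LNCaP. DTYMK differed by -0.10 ± 0.11 in c42b and by -0.15 ± 0.11 in LNCaP, but its brightest probe exceeded the background level in only 11 of the 32 samples and its other probe in 5, so neither can show much of a change.

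At an adjusted p under 0.05, TYMS and DUT were called lower in c42b shGA cells, 2 of 7 members, where 1.53% of all genes were called lower and 3.25% were called in either direction. In LNCaP shGA cells DUT was called lower and RRM2 higher, where 2.46% of all genes were called. Since the members were chosen with these comparisons known, nothing is read from the counts. The RRM2 call was lost in 7 of 10 alternative analyses and when any 1 of 7 of its 8 samples was left out. The KD differences of the 7 members had a median of -0.25 in c42b and -0.10 in LNCaP, beside 0.00 over all genes in each line.

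For 4 members, pLVX_EV and NT cells lay further apart than shGA and NT cells did. TYMS measured 8.79 and 8.62 with R1881 and 8.77 and 8.69 with vehicle in c42b pLVX_EV cells, against 11.91 and 11.96 with R1881 and 12.03 and 11.82 with vehicle in c42b NT cells. In LNCaP it measured 9.01 and 9.12 with R1881 and 8.96 and 8.94 with vehicle in pLVX_EV cells, against 10.53 and 10.87 with R1881 and 11.08 and 11.10 with vehicle in NT cells. No samples overlapped. The difference was -3.21 ± 0.11 in c42b and -1.89 ± 0.11 in LNCaP (limma, adjusted p = 6.2e-20 and 2.3e-14), that is 9.27-fold and 3.71-fold lower in pLVX_EV cells.

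TK1 followed TYMS. It averaged 8.18 ± 0.20 in c42b pLVX_EV cells and 11.23 ± 0.16 in c42b NT cells (SD, n = 4 each), a difference of -3.06 ± 0.10 (SE; limma, adjusted p = 7.5e-20). In LNCaP it averaged 8.13 ± 0.22 in pLVX_EV cells and 9.88 ± 0.24 in NT cells (SD, n = 4 each), a difference of -1.75 ± 0.10 (SE; limma, adjusted p = 5.8e-14). The TK1 samples of the 2 vectors did not overlap in either line.

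Both subunits of ribonucleotide reductase were lower as well. RRM1 measured 10.85 and 10.73 with R1881 and 10.92 and 10.91 with vehicle in c42b pLVX_EV cells, against 11.93 and 12.12 with R1881 and 12.25 and 12.08 with vehicle in c42b NT cells, a difference of -1.24 ± 0.08 (limma, adjusted p = 3.9e-13). In LNCaP the RRM1 difference was -0.56 ± 0.08 (limma, adjusted p = 5.2e-06), again without overlap. RRM2 lay below the background level in all 8 pLVX_EV samples, between 6.67 and 7.09, and above it in all 8 NT samples, between 7.83 and 9.09. Taking the background level in place of the pLVX_EV values, RRM2 was at least 2.14-fold lower in c42b pLVX_EV cells and at least 1.17-fold lower in LNCaP pLVX_EV cells. These bounds were not tested. The differences with the measured pLVX_EV values were -2.10 in c42b and -1.05 in LNCaP (limma, adjusted p = 2.7e-16 and 2.8e-09).

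DUT did not move with these 4 genes at its brightest probe. It averaged 9.29 ± 0.15 in c42b pLVX_EV cells and 8.82 ± 0.18 in c42b NT cells (SD, n = 4 each), higher by 0.47 ± 0.10 (SE; limma, adjusted p = 8.1e-04), and differed by -0.08 ± 0.10 in LNCaP (limma, adjusted p = 0.746). The other probes of DUT gave the opposite sign in c42b, -0.77 ± 0.09 for ILMN_1732688 and -0.63 ± 0.08 for ILMN_2374778 (limma, adjusted p = 7.9e-08 and 1.5e-06), the second of which lay below the background level in all 4 c42b pLVX_EV samples, and were lower in LNCaP too, by -0.45 ± 0.09 and -0.31 ± 0.08 (limma, adjusted p = 4.3e-04 and 0.0148). A direction for DUT between the control vectors thus depends on the probe, as the plot of its 3 probes shows.

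DCTD, the deaminase that supplies dUMP, averaged 10.37 in c42b pLVX_EV cells and 10.15 in c42b NT cells, and the difference of 0.21 ± 0.08 was not called (limma, adjusted p = 0.127), and -0.05 ± 0.08 in LNCaP (limma, adjusted p = 0.855). DTYMK differed by -0.07 ± 0.11 in c42b and -0.14 ± 0.11 in LNCaP, near the background level in all groups.

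In c42b, 4 of the 7 members were called lower in pLVX_EV cells, where 8.43% of all genes were, and 5 of 7 were called in either direction, against 18.0% of all genes. In LNCaP 4 of 7 were called lower, against 5.76% of all genes, and 4 of 7 in either direction, against 11.9%. The vector backbone and the making of each stable line cannot be told apart here. In bulk RNA, fewer cells in S phase and less of each transcript per cell cannot be told apart either.

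**Figure D2:**
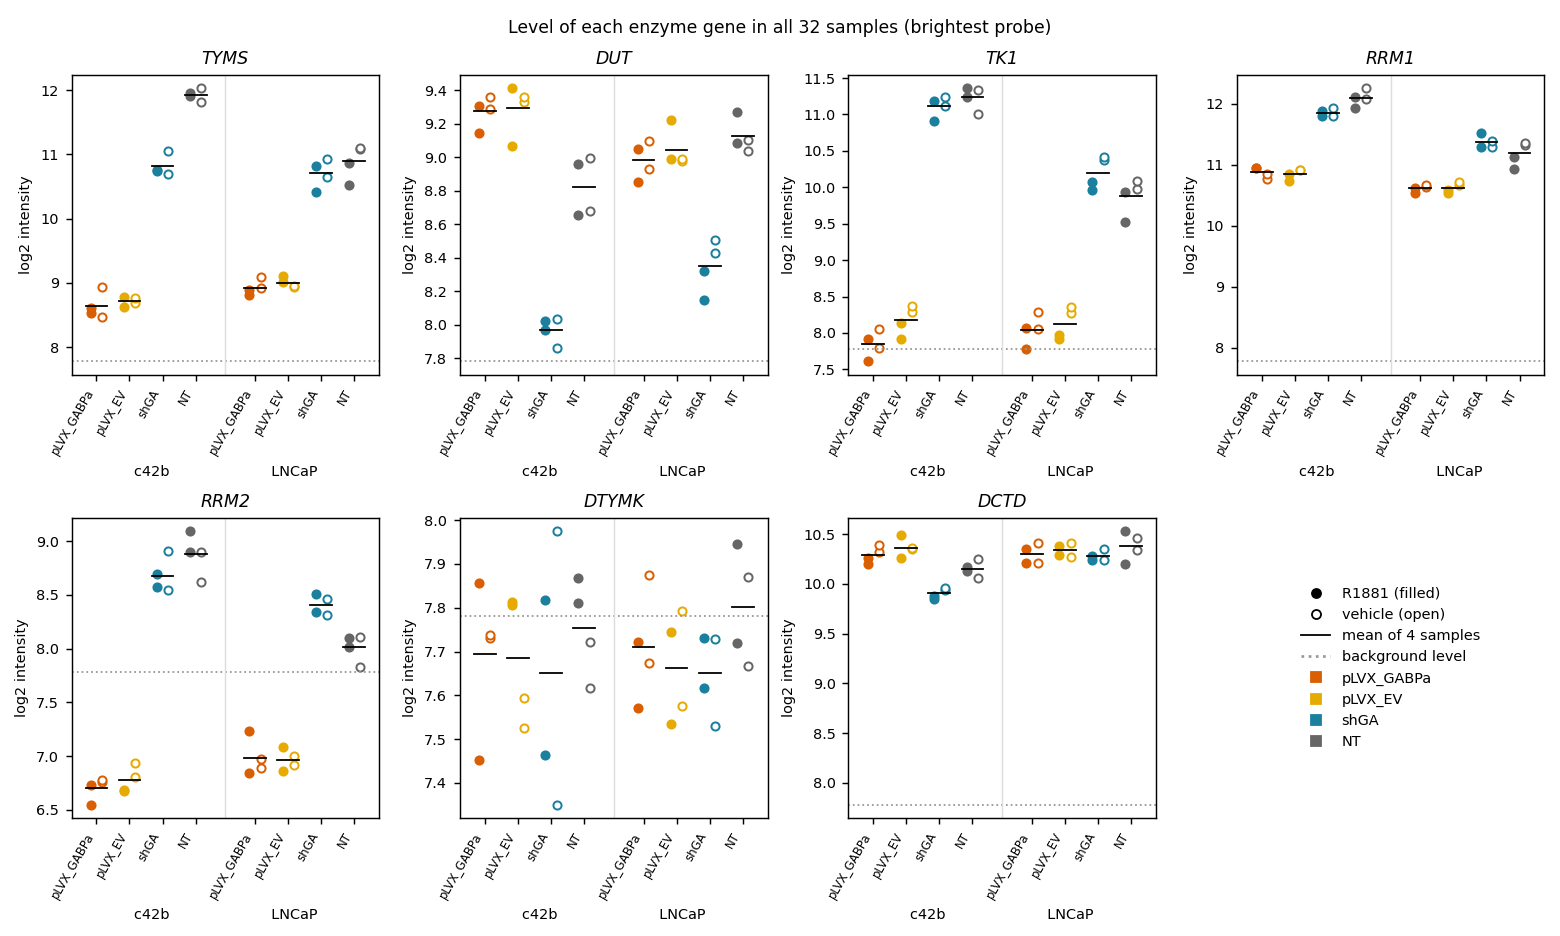
Log2 intensity of each member at its brightest probe in all 32 samples, with groups from pLVX_GABPa through pLVX_EV and shGA to NT within c42b and then LNCaP. Filled points are R1881 samples, open points vehicle samples, bars the mean of 4 samples and dotted lines the background level of 7.78. TYMS, TK1, RRM1 and RRM2 sit low in both pLVX groups of each line, and DUT sits low in the shGA groups.

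The gap between the control vectors was wider in c42b than in LNCaP for the same 4 genes. The difference of the gaps, c42b minus LNCaP, was -1.32 ± 0.15 for TYMS, -1.30 ± 0.15 for TK1, -1.06 ± 0.14 for RRM2 and -0.68 ± 0.11 for RRM1 (SE; limma, adjusted p = 7.6e-08, 5.0e-08, 1.2e-06 and 3.6e-05). The RRM2 value rests on pLVX_EV levels below the background level. DUT went the other way, with 0.55 ± 0.14 at its brightest probe (limma, adjusted p = 0.0047), against -0.32 ± 0.12 and -0.33 ± 0.12, not called, at ILMN_1732688 and ILMN_2374778. DTYMK and DCTD were not called at their brightest probes, and the dimmer DCTD probe gave 0.36 ± 0.12 (limma, adjusted p = 0.0437). These 4 lower calls of 7 compare with 5.08% of all genes, and the 5 calls in either direction with 10.3%.

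Set against LNCaP, c42b cells had more of the same 4 transcripts when both control vectors were averaged. The difference, c42b minus LNCaP, was 0.70 ± 0.07 for TK1, 0.57 ± 0.06 for RRM1, 0.37 ± 0.08 for TYMS and 0.34 ± 0.07 for RRM2 (SE; limma, adjusted p = 4.7e-09, 1.7e-09, 3.2e-04 and 4.4e-04), the RRM2 value resting in part on pLVX_EV levels below the background level. That is 4 of 7 called higher against 14.9% of all genes, with 28.6% of all genes called in either direction. The samples of the lines overlapped for all 4 genes, because each average joins a high NT and a low pLVX_EV group.

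Within NT cells alone the lines stood clearly apart. TK1 measured 11.24 and 11.36 with R1881 and 11.00 and 11.33 with vehicle in c42b, against 9.53 and 9.93 with R1881 and 9.98 and 10.08 with vehicle in LNCaP, a difference of 1.35 ± 0.10 (limma, adjusted p = 1.5e-11). TYMS was higher by 1.03 ± 0.11, RRM1 by 0.91 ± 0.08 and RRM2 by 0.87 ± 0.10 (limma, adjusted p = 1.1e-08, 3.1e-10 and 8.1e-08), and DUT lower by -0.30 ± 0.10 (limma, adjusted p = 0.0345). In NT cells 4 of 7 members were higher against 11.0% of all genes, and 5 of 7 were called against 21.5%. The DUT call was lost with median centring and within either arm alone, and without 5 of its 8 samples in turn. It was made at the brightest DUT probe, and the other probes stood closer between the lines. ILMN_1732688 averaged 8.57 in c42b NT and 8.67 in LNCaP NT cells, and ILMN_2374778 averaged 8.15 and 8.24.

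Within pLVX_EV cells none of the 7 was called at its brightest probe between the lines, where 21.6% of all genes were, and 3 (TYMS, DUT and RRM1) had an unadjusted p under 0.05 (limma). TYMS averaged 8.72 ± 0.08 in c42b and 9.01 ± 0.08 in LNCaP (SD, n = 4 each), a difference of -0.29 ± 0.11 without overlap (limma, adjusted p = 0.0858), so its order between the lines was opposite to that in NT cells. TK1 differed by 0.05 ± 0.10 and RRM1 by 0.23 ± 0.08 between the lines in pLVX_EV cells, and RRM2 was below the background level in both. The probes of DUT disagreed here too, with 0.25 ± 0.10 at the brightest (limma, adjusted p = 0.104) and -0.42 called lower at each of ILMN_1732688 and ILMN_2374778 (SE 0.09 and 0.08; limma, adjusted p = 7.0e-04 and 4.6e-04).

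Over the 8 groups of line and vector, TYMS ran highest in c42b NT cells (11.93), followed by LNCaP NT (10.90), c42b shGA (10.81) and LNCaP shGA (10.70), whose samples overlapped each other. The pLVX groups followed, from 9.01 in LNCaP pLVX_EV and 8.93 in LNCaP pLVX_GABPa to 8.72 in c42b pLVX_EV and 8.64 in c42b pLVX_GABPa. DUT had another order, from 9.29 in c42b pLVX_EV down to 8.35 in LNCaP shGA and 7.97 in c42b shGA, and only these 2 lowest groups were clear of the groups above them. For TYMS, TK1 and RRM2 every sample of the 4 hairpin groups lay above every sample of the 4 pLVX groups. For RRM1 the means kept that order, but the lowest LNCaP NT sample (10.93) lay within the range of the c42b pLVX_GABPa samples (10.76 to 10.95).

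No member was called between pLVX_GABPa and pLVX_EV cells in either line (limma), and at an unadjusted p under 0.05 stood only 1, TK1 in c42b. The 7 differences of pLVX_GABPa minus pLVX_EV ranged from -0.33 to 0.03 in c42b and from -0.08 to 0.05 in LNCaP, where 0.150% and 0.0449% of all genes were called. The largest was TK1 in c42b, with 7.61 and 7.92 (R1881) and 8.05 and 7.80 (vehicle) in pLVX_GABPa cells, against 8.13 and 7.92 (R1881) and 8.28 and 8.37 (vehicle) in pLVX_EV cells. These samples overlapped, and the difference of -0.33 ± 0.10 did not pass (limma, adjusted p = 0.166). For TYMS the 95% interval ran from -0.30 to 0.14 in each line, so changes larger than these bounds are outside it.

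No member was called between R1881 and vehicle either (limma), and at an unadjusted p under 0.05 stood none in c42b and 2 in LNCaP, TK1 and RRM1. In control cells, taking NT and pLVX_EV together, 1.55% of all genes were called between R1881 and vehicle in c42b and 2.97% in LNCaP. TYMS differed by -0.01 ± 0.11 in c42b and by -0.14 ± 0.11 in LNCaP, and DUT by -0.07 ± 0.10 and 0.12 ± 0.10. The largest member differences were those of TK1 and RRM1 in LNCaP. TK1 averaged 8.84 with R1881 and 9.17 with vehicle, a difference of -0.34 ± 0.10 (limma, adjusted p = 0.155), and RRM1 averaged 10.80 with R1881 and 11.01 with vehicle, a difference of -0.22 ± 0.08 (limma, adjusted p = 0.312).

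The androgen difference was also read within the manipulated cells, and again no member was called (limma), with 1, TK1 in LNCaP shGA cells, at an unadjusted p under 0.05. R1881 minus vehicle called 0.718% of all genes in c42b shGA cells, 1.96% in LNCaP shGA cells, 0.848% in c42b pLVX_GABPa cells and 1.74% in LNCaP pLVX_GABPa cells. TK1 in LNCaP shGA cells gave the largest member value, -0.38 ± 0.15 (limma, adjusted p = 0.434), with both R1881 samples below both vehicle samples. The androgen difference of c42b minus that of LNCaP, called for 0.334% of all genes, was called for no member, and none had an unadjusted p under 0.05.

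No member was called for a difference of the KD or OE effect between arms, where 0.00499% and 0.0200% of all genes were called for KD in c42b and LNCaP, and 0.0150% and 0.00% for OE. At an unadjusted p under 0.05 stood 1 member, RRM1, for KD in LNCaP and none in the other 3 comparisons (limma). The OE effect did not pass between lines for any member either, with 0.0150% of all genes called, while the KD effect differed between lines for 0.958% of all genes. After TYMS, whose value is given above as description, came RRM2, with -0.59 ± 0.14, TK1 with -0.44 ± 0.15 and RRM1 with -0.43 ± 0.11, none of which was called (limma).

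**Figure D3:**
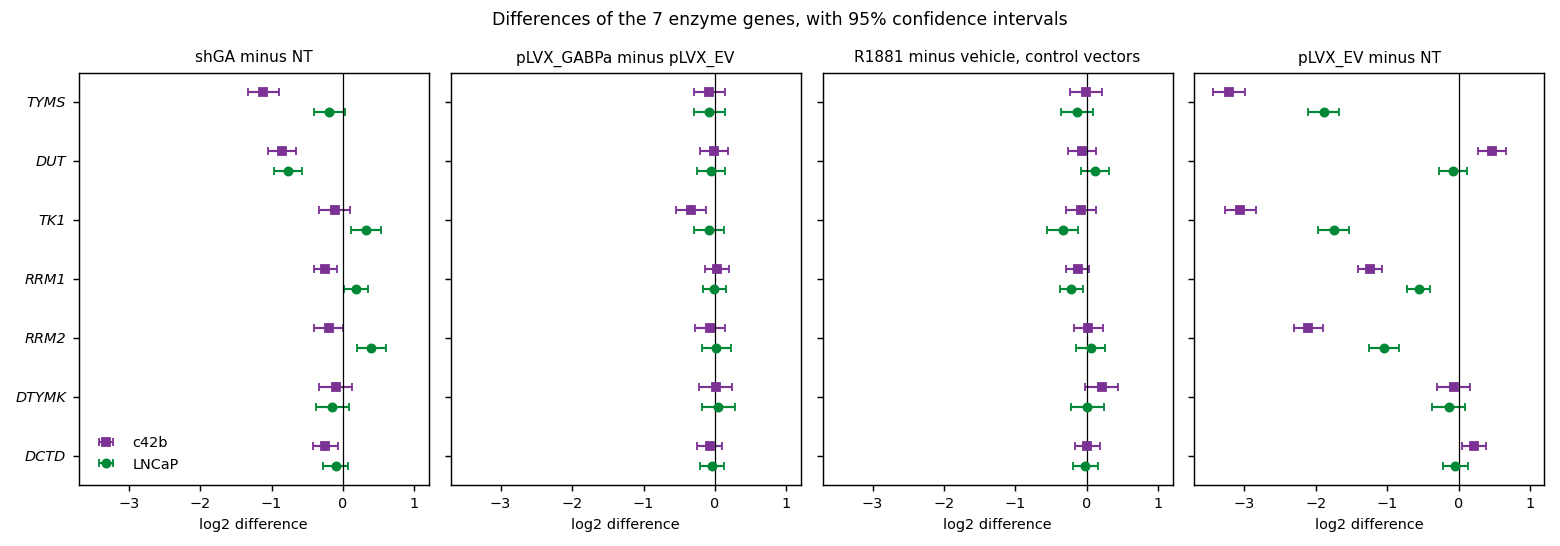
Log2 differences of the 7 members in 4 comparisons, with 95% confidence intervals; squares are c42b and circles LNCaP. The intervals of TYMS, TK1, RRM1 and RRM2 lie far left of 0 for pLVX_EV minus NT, those of TYMS in c42b and of DUT in both lines lie left of 0 for shGA minus NT, and DUT in c42b lies right of 0 for pLVX_EV minus NT. All other differences, taken without their intervals, lie within 0.40 of 0. Among these, for shGA minus NT, the intervals of RRM1 and DCTD in c42b lie left of 0. Those of TK1, RRM1 and RRM2 in LNCaP lie right of it. Also clear of 0 are the intervals of DCTD (pLVX_EV minus NT) and TK1 (pLVX_GABPa minus pLVX_EV) in c42b. So are those of TK1 and RRM1 in LNCaP for R1881 minus vehicle.

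Genes of related pathways, listed by function with earlier results of these data known, were read beside the members. For these lists, the share of all genes called lower in pLVX_EV than in NT cells was 8.43% in c42b and 5.76% in LNCaP. The share called higher was 9.58% in c42b and 6.17% in LNCaP. Of 41 genes of DNA synthesis in S phase, 34 were lower and none higher in c42b pLVX_EV cells than in c42b NT cells, with a median of -1.06, and in LNCaP 28 were lower and none higher, with a median of -0.49. CDC45, part of the replicative helicase, averaged 7.59 in c42b pLVX_EV cells and 10.76 in c42b NT cells, and in LNCaP 7.30 in pLVX_EV cells and 9.05 in NT cells, both pLVX_EV means being below the background level. MCM7, of the same helicase, averaged 10.85 in c42b pLVX_EV cells and 12.75 in c42b NT cells. Of 30 mitosis genes, 29 were lower in c42b and 28 in LNCaP, with medians of -2.16 and -1.04. Their largest difference was that of CDC20, an activator of the anaphase-promoting complex, with 8.74 in c42b pLVX_EV cells and 12.67 in c42b NT cells. The differences of TYMS and TK1 in c42b lay within the range of that list of mitosis genes (-3.93 to -0.27).

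The other branches of nucleotide metabolism moved less between the control vectors. Of 14 measured genes of purine synthesis, 11 were lower in c42b and 8 in LNCaP, with medians of -0.41 and -0.27. PFAS, an enzyme of the purine ring pathway, averaged 8.28 in c42b pLVX_EV cells and 9.23 in c42b NT cells. Of 13 genes of pyrimidine nucleotide synthesis, 4 were lower in c42b and 3 in LNCaP, and none was higher. CTPS1, which makes CTP from UTP, differed by -0.66 ± 0.08 in c42b and by -0.43 ± 0.08 in LNCaP (limma, adjusted p = 2.1e-07 and 1.8e-04).

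Folate enzymes, which carry the methyl group for thymidylate, were split in c42b. Of 15 measured, 3 were lower and 3 higher in c42b pLVX_EV cells. GGH, which trims folate polyglutamates, averaged 9.17 in c42b pLVX_EV cells and 10.53 in c42b NT cells, whereas the mitochondrial enzyme MTHFD2 averaged 11.71 in c42b pLVX_EV cells and 10.41 in c42b NT cells. In LNCaP 2 of the 15 were lower, SHMT2 and MTHFD1, and none was higher. Of 21 measured genes of deoxynucleotide salvage, clearance and breakdown, 6 were lower in each line. DCK, the deoxycytidine kinase, differed by -1.05 ± 0.08 in c42b, while TYMP, which breaks thymidine down, was higher by 0.49 ± 0.08 in c42b and by 0.28 ± 0.08 in LNCaP (limma, adjusted p = 2.5e-11, 2.8e-05 and 0.0181).

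After KD fewer genes of these lists were called than between the control vectors. Of the 41 S phase genes, 2 were lower and 1 higher in c42b, and 3 were higher in LNCaP, with medians of -0.16 and 0.12. MCM6, a helicase subunit, was higher in both lines, by 0.33 ± 0.08 in c42b and 0.66 ± 0.08 in LNCaP, while MCM3 of the same complex was lower in c42b by -0.64 ± 0.08. Of the 30 mitosis genes, 11 were lower in c42b, where 1.53% of all genes were, and 4 were higher in LNCaP, where 1.27% of all genes were, with medians of -0.32 and 0.22. TYMS in c42b, at -1.12, lay below the lowest gene of the S phase list (-0.64) and of the mitosis list (-0.56), and DUT in LNCaP, at -0.77, lay below their lowest there (-0.11 and -0.12). Both genes were chosen with these low values known, so nothing is read from their place beyond the lists. DUT in c42b lay below both lists only at its brightest probe. None of the genes of pyrimidine synthesis or of deoxynucleotide salvage was called in either line, ADSL was the only purine gene called (-0.30 ± 0.07 in c42b) and SHMT2 the only folate gene (-0.38 ± 0.08 in LNCaP). Of 13 GABP subunits and known targets, TYMS among them, 2 were lower (TYMS and GABPA) and 1 higher (GABPB1) in c42b, and GABPB1 alone was called in LNCaP.

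**Figure D4:**
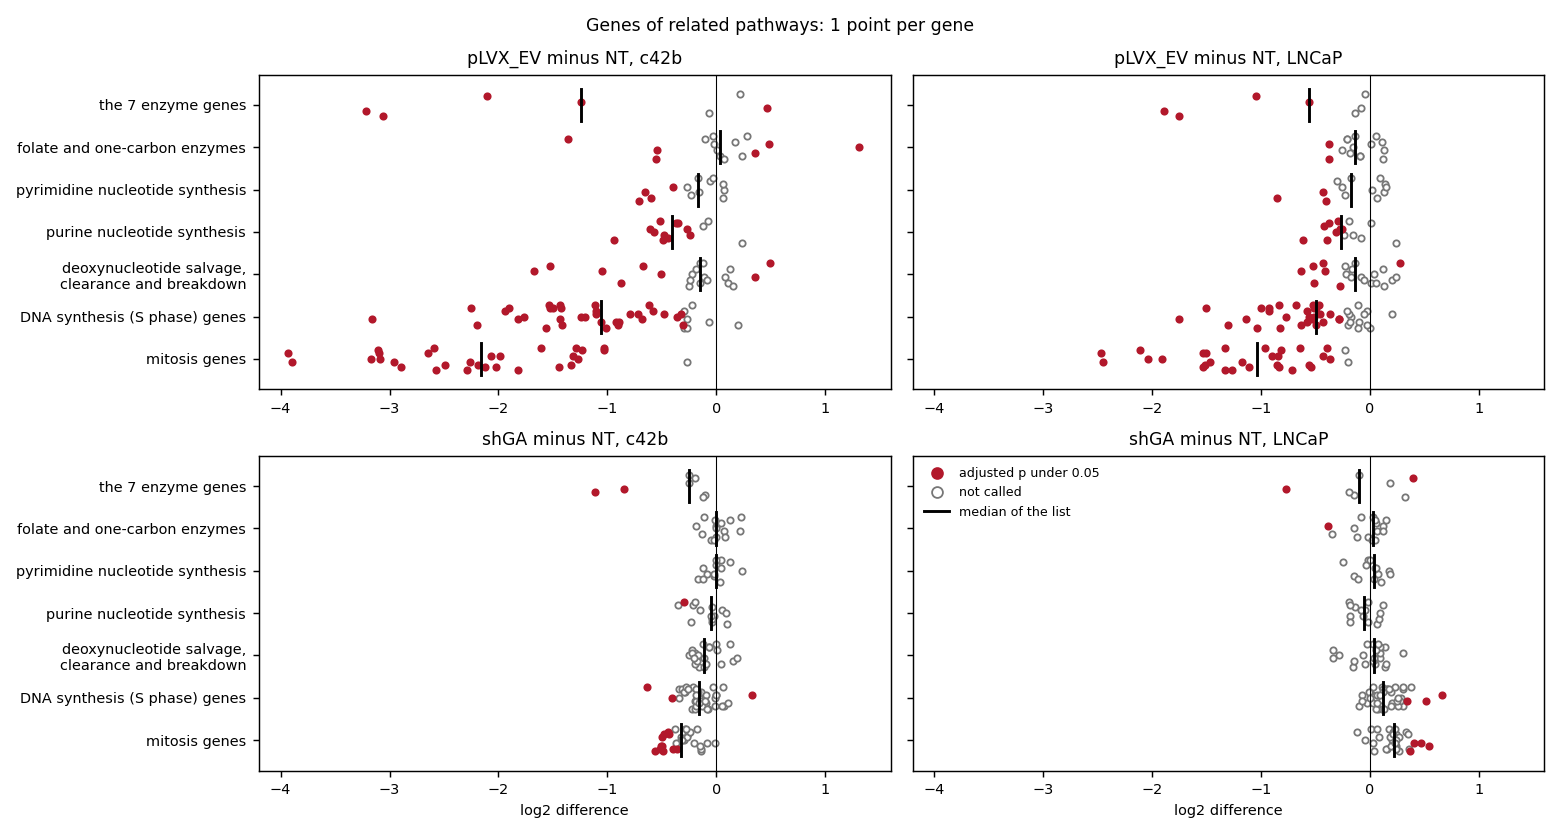
Log2 differences, 1 point per gene, of the 7 members and 6 related lists, for pLVX_EV minus NT (top) and shGA minus NT (bottom) in c42b (left) and LNCaP (right); filled red points passed an adjusted p of 0.05 and black lines are list medians. Most S phase and mitosis genes lie left of 0 at the top, and between -0.64 and 0.66 at the bottom, where TYMS and the brightest DUT probe lie left of both lists in c42b. The choice of TYMS and DUT with low KD values known favours such a place.

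Across the 32 samples, after subtraction of each line's mean, TYMS, TK1, RRM1 and RRM2 followed one another with Pearson r between 0.95 and 0.98. DUT at its brightest probe ran against them (r from -0.72 to -0.55) and with DCTD (r = 0.75), whereas its other 2 probes were lower in pLVX_EV than in NT cells, as those 4 genes were, and DTYMK followed none (r from 0.02 to 0.13). These values rest on shared arrays and mostly on the contrast between the hairpin and pLVX groups. Among 9941 genes above the background level, those most like TYMS were MELK (r = 0.98), CEP55, PARPBP, MCM3 and CDCA5. All 5 were lower in c42b shGA cells, with differences between -0.81 for MELK and -0.51 for CDCA5, and differed by 0.03 to 0.17 in LNCaP shGA cells, a pattern that the choice of genes like TYMS favours.

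The genes most like DUT were HMGN4 (r = 0.95), ZMYM6, C12orf57, IFITM2 and ZDHHC4. All 5 were lower after KD in both lines, as the choice of genes like DUT favours. HMGN4 differed by -1.59 ± 0.09 in c42b and -0.94 ± 0.09 in LNCaP after KD, and by 0.54 ± 0.09 in c42b and 0.00 in LNCaP between pLVX_EV and NT. ZMYM6 differed by -0.64 ± 0.08 and -0.65 ± 0.08 after KD, and by 0.66 ± 0.08 in c42b between pLVX_EV and NT.

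A transcript listed on the opposite strand at the TYMS locus, TYMSOS, was read beside TYMS and was chosen after its values were seen. It was lower in pLVX_EV cells, by -1.66 ± 0.09 in c42b and -1.43 ± 0.09 in LNCaP (limma, adjusted p = 6.1e-15 and 2.0e-13). After KD it averaged 11.92 in c42b shGA cells and 11.69 in c42b NT cells, and this difference of 0.23 ± 0.09 was not called (limma, adjusted p = 0.374), beside the -1.12 of TYMS in the same samples.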

How the data were processed

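Per the methods, biotin-labelled cRNA made from the extracted RNA was hybridised to Illumina HT-12 bead arrays. The authors deposited a table of non-normalized linear bead intensity (47231 probes, 94 missing values) and a table of log2 values, which per the methods came from beadarray with spatial and regional corrections, log2 and quantile normalization. The log2 table differed from the values used here by a median of 1.6e-04. Here, intensities were log2-transformed and quantile-normalized, repeat arrays averaged and 16 group means fitted with limma 3.58.1 (R 4.3.3) over all probes. Benjamini-Hochberg adjustment ran jointly over all probes and the comparisons of a family (6 main comparisons, 6 interactions and the others by type). Of the probes, 30113 named 1 gene, 8 several and 17110 none. The brightest probe stood for each gene. Arrays give no counts, and their number limits the precision (median SE 0.10). The fit was tested on simulated data. Replicate numbers do not pair the samples.

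The members and the gene lists were chosen with earlier results of these data known. Named were all members with every probe, GABPA and GABPB1, up to 3 called genes per list, comparison and direction by smallest p, and the 5 genes most like TYMS and DUT. Alternatives were normexp correction with an offset of 50, median centring, the deposited log2 table, a restriction to probes above background, adjustment per comparison, a threshold of 0.1, any probe, omitted repeat arrays, single arms, single lines, a replicate block and each sample left out. Promoters are RefSeq's (GRCh38.p14). No column was left unmapped.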

Additional observations from a re-analysis of the deposited data

Results flagged for a closer look

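In 2 of the 56 sets of 4 samples that share a line and a vector, 1 sample of a member stood far from its 3 companions, and chance alone singles out about 5% of such sets. TYMS measured 11.06 in c42b shGA vehicle sample 1, against 10.70 to 10.75 in the other 3. DUT measured 9.22 in LNCaP pLVX_EV R1881 sample 2, against 8.98 to 8.99 in the other 3. Without each sample in turn, the TYMS difference of shGA minus NT in c42b ranged from -1.21 to -1.03. That of DUT ranged from -0.93 to -0.77 in c42b and from -0.82 to -0.73 in LNCaP. These ranges are description only, since low KD values were known when the genes were chosen.

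The size of a difference was set against the other line for KD and for the control vectors. The KD difference of TYMS was lower in c42b than in LNCaP by -0.92, a description only, since its low value in c42b was known when the gene was chosen. The difference of pLVX_EV minus NT was more negative in c42b than in LNCaP by -1.32 for TYMS, -1.30 for TK1, -1.06 for RRM2 and -0.68 for RRM1, and more positive by 0.55 for the brightest DUT probe, all called (limma). RRM2 was below the background level in the pLVX_EV cells of both lines.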

How the results depend on the processing

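Of 28 member results called in the 23 comparisons, 23 kept direction and call at the brightest probe under every alternative tried, where no called value changed sign. The KD calls among these results, and the counts of them below, are description only, since the members were chosen with the KD comparisons known. At its other probes, DUT between pLVX_EV and NT in c42b was -0.77 and -0.63, against 0.47. The wider DUT gap in c42b was -0.32 and -0.33, against 0.55. The count of members called after KD in LNCaP, 2, was 1 with the replicate block, normexp correction, median centring, brighter probes only, omitted repeat arrays, either arm alone or a fit of LNCaP alone, and 1 to 2 without each sample in turn. It was RRM2 that was lost, except with brighter probes only, where RRM2 was not tested. The count for R1881 in LNCaP, 0, was 1 (TK1) with brighter probes only and 0 to 1 without each sample, TK1 being called without NT R1881 sample 2. The count over the interactions, 1, was 2 with brighter probes only (RRM1) and with adjustment within each comparison (RRM2). DUT between pLVX_EV and NT in c42b was not called in the R1881 arm alone, TYMS between the lines not in the vehicle arm alone, and the wider DUT gap in c42b in neither arm alone. Of the 133 results not called, 9 were called under some alternative, among them TYMS, DUT and RRM1 between the lines in pLVX_EV cells with brighter probes only. The replicate block changed no call but that of RRM2, and same-numbered samples did not deviate together (r from -0.14 to 0.23 in c42b and from -0.23 to 0.18 in LNCaP). With brighter probes only, 1145 genes were called after KD in c42b against 651 and 876 in LNCaP against 494. Median centring lowered the share of higher genes among those called to 37.6% from 52.8% after KD in c42b, to 34.0% from 51.4% in LNCaP and to 39.6% from 53.2% between the control vectors in c42b. The causes were not tested. RRM2 in pLVX cells and DTYMK in most samples lie under the background level, so small changes there cannot be seen.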
